A study of Homo sapiens with 4 samples.

Results

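The ATF4 stress response genes are ATF4, DDIT3, ATF3, TRIB3, CHAC1, ASNS, PHGDH, PSAT1, DDIT4 and SESN2. They were taken from the expression table by their RefSeq symbols, and all 10 were found among its 16658 genes. Their mRNA was read by bulk RNA-seq in untreated WT and ZCCHC4 KO1 cells, with 2 libraries for each. WT cells carry the wildtype genotype, and ZCCHC4 KO1 is 1 of the study's CRISPR/Cas9 knockout lines of ZCCHC4, an RNA-binding protein and m6A methyltransferase of ribosomal RNA. Nothing stated that the 2 libraries of a group came from separate cultures, so the tests measure only the spread between these libraries. With 1 knockout line sequenced, effects of the knockout and of the clone cannot be told apart. Values are FPKM, fragments scaled by transcript length and by all mapped fragments of the library, so levels can be roughly compared between genes. This scaling does not correct for the GC content of transcripts. The depth of the libraries is unknown.

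ZCCHC4 itself was at 7.22 and 5.44 FPKM in WT libraries, against 1.08 and 2.29 in ZCCHC4 KO1 (log2 fold change of -1.48, SE, the standard error, 0.287, adjusted p = 0.0448 from limma). The call on ZCCHC4 was lost with a pseudocount of 0.1 (adjusted p = 0.0551), with no filter on low values (0.115) and without ZCCHC4 KO1 replicate 1 (0.0514, all from limma). Both groups are labelled HepG2, a line established from a human liver tumor. Of 9 hepatocyte markers, 4 had values (AFP, SERPINA1, FGB and HNF4A), none above 0.11 FPKM, and they summed to between 0.09 and 0.13 FPKM in the 4 libraries. AFP and SERPINA1 were each at 0 in 3 of the 4 libraries. Of 4 simple epithelial keratins, KRT7, KRT8 and KRT18 were abundant and KRT19 was at most 0.11, and the 4 summed to between 5243.51 and 9259.96 FPKM. The 4 hepatocyte markers with values were thus at or near 0 in libraries labelled HepG2. The other markers of the list had no value, which is not a measured 0. HepG2 is used here only as the label.

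ATF4 is the transcription factor at the end of the integrated stress response. Kinases that sense endoplasmic reticulum (ER) stress, amino acid shortage, double-stranded RNA or lack of heme phosphorylate the initiation factor eIF2, which lowers protein synthesis in general while translation of ATF4 mRNA goes up. Its protein output is therefore set to a large part at translation, and its mRNA level is not a measure of its activity. ATF4 binds DNA with C/EBP partners at C/EBP-ATF response elements and switches on genes for amino acid supply, for feedback on the response and for cell death.

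The 10 genes lie on 8 chromosomes. In RefSeq coordinates of GRCh38, the transcription factor genes are ATF4 at chr22:39520559-39522686, DDIT3 at chr12:57516588-57520517 and ATF3 at chr1:212565407-212620777. TRIB3 is at chr20:380760-397559, CHAC1 at chr15:40953471-40956512 and ASNS at chr7:97851677-97928441. PHGDH is at chr1:119711934-119744215, PSAT1 at chr9:78297125-78330093, DDIT4 at chr10:72273924-72276036 and SESN2 at chr1:28259518-28282491. Sequence elements near their starts come first. The 10 genes and the lists below were drawn up as stress response genes, and ATF4 acts through such elements. A high share of matches therefore describes them and is no independent support. The strict form of the element, TGATGCAA on either strand, was looked for from 1000 bases before to 1000 bases after every start in a RefSeq table of gene starts, in the hg38 genome. It occurred in 7 of the 10 genes, against 368 of 8827 tested genes with a start in that table (4.17%). The 7 genes were TRIB3, CHAC1, DDIT3, PHGDH, PSAT1, DDIT4 and SESN2. One match per gene is shown in the gene's own orientation, with the element in capitals and 10 flanking bases on each side.
TRIB3: tagctccggtTTGCATCAcccggaccgg
CHAC1: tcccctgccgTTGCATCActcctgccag
DDIT3: ttgccaaacaTTGCATCAtccccgcccc
PHGDH: gcccctcgtcTGATGCAAgactgctccg
PSAT1: cctaggcgctTTGCATCAgcgtgcacag
DDIT4: tcctcggtccTGATGCAAccgtctggat
SESN2: gggacccgggTTGCATCAactggcagcc
The TRIB3 sequence occurred 3 times, at chr20:380892-380899, chr20:380925-380932 and chr20:380958-380965 in a repeat with a spacing of 33 bases, and TRIB3 is on the plus strand. These copies lay 403, 370 and 337 bases before the nearest start in the table. They are nevertheless inside the gene, 132, 165 and 198 bases after the first base of TRIB3 in RefSeq, a start that the table lacks, and in a UTR in GENCODE. The CHAC1 element at chr15:40953262-40953269 lay 209 bases before the start and is likewise in the UTR of a longer GENCODE transcript. The DDIT3 element shown lay at chr12:57520813-57520820, 303 bases before the start on the minus strand, within an intron of a longer DDIT3 transcript and of MBD6, and a further match lay at chr12:57519688-57519695. The elements of PHGDH (chr1:119712797-119712804), PSAT1 (chr9:78297392-78297399) and SESN2 (chr1:28260070-28260077) were intronic, 863, 267 and 552 bases after the first base of the gene. PHGDH also had a match at chr1:119710980-119710987. The DDIT4 element at chr10:72272978-72272985 was upstream of the gene, in an exon of a neighbouring transcript.

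**Figure D1:**
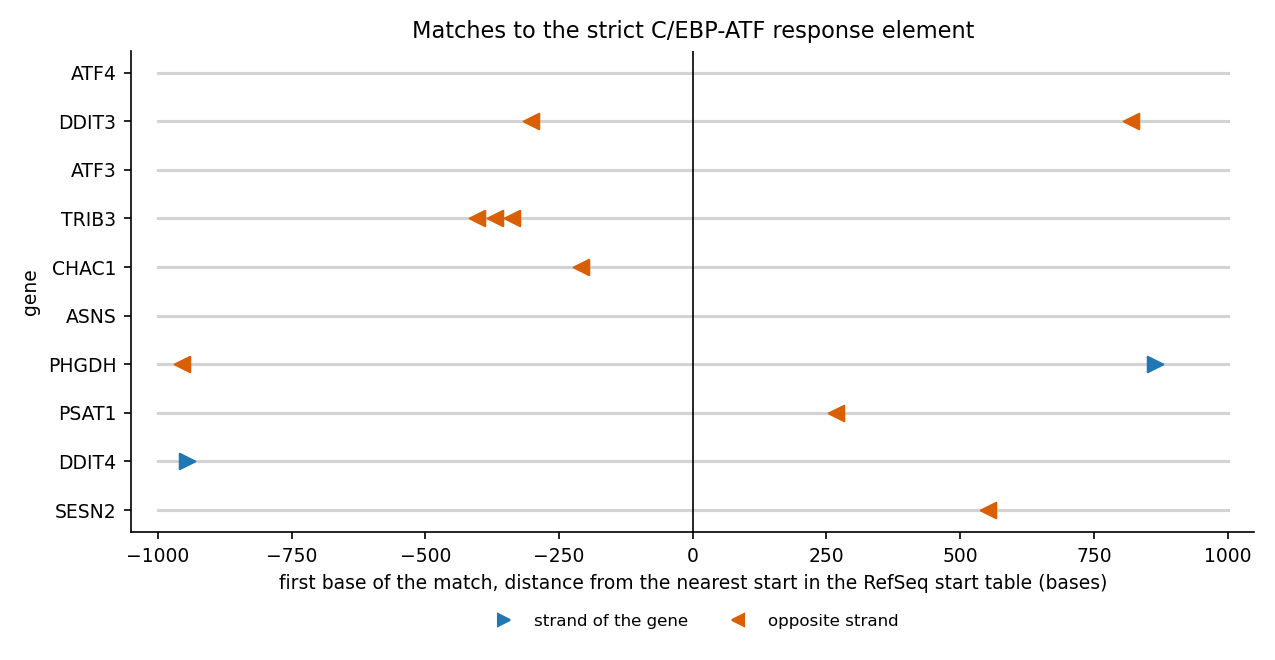
Position of each match to TGATGCAA around the start sites of the 10 genes. The horizontal axis gives the distance in bases from the nearest start in the RefSeq start table, each row is a gene, and the direction of a triangle gives the strand relative to the gene. TRIB3 has 3 matches 33 bases apart, drawn before 0 although they lie inside the gene, while ATF4, ATF3 and ASNS have none.

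A looser form, TGATGNAA, was looked for on both strands in a window of 250 bases before to 50 bases after the start. It includes the strict form. It occurred in 3 of the 10 genes and in 2.49% of the tested genes with such a window. Besides CHAC1, these were ASNS and ATF3. Their elements lay 68 and 191 bases before a start in the table, at chr7:97872469-97872476 (minus strand) and chr1:212565216-212565223 (plus strand). The ASNS element is nevertheless inside the gene, in a UTR in GENCODE, while the ATF3 element is upstream of the gene.
ASNS: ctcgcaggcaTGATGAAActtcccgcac
ATF3: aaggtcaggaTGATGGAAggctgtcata
ATF4 was then the only one of the 10 with no match to either form in these windows. The matches describe letters in the reference genome and do not show binding.

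None of the 10 genes passed an adjusted p of 0.05 in the comparison of ZCCHC4 KO1 with WT. TRIB3 and PHGDH had the highest ratios of the mean FPKM, at 1.74 and 1.73, and CHAC1 the lowest, at 0.449. ATF4, ASNS and SESN2 had ratios of 0.956, 0.95 and 1.0. Of the 10 genes, 4 were higher in both ZCCHC4 KO1 libraries than in both WT libraries, 4 were lower in both, and 2 overlapped. Their median log2 fold change was -0.03, the same as the median over all 10726 genes tested. Of the 10726 genes, 641 passed (5.98%), 161 higher (1.5%) and 480 lower (4.48%), and with quantile normalization 466 were higher and 721 lower. Both ZCCHC4 KO1 libraries lay above both WT libraries in 23.1% of tested genes and below them in 28.5%, 51.6% together. At an unadjusted p under 0.05 from limma, 2 of the 10 genes were higher (TRIB3 and PHGDH) and 2 lower (CHAC1 and DDIT4), against 8.96% and 13.9% of all genes tested. How many of the 10 passed depended on the setting. Median-ratio scaling called 1 higher and 0 lower, against 3.23% and 6.19% of all genes. Quantile normalization called 2 higher and 0 lower, against 4.34% and 6.72%. Removal of the trend on GC content called 2 higher and 2 lower, against 7.02% and 12.8%, and a crossed pairing of the libraries, chosen after seeing the data, 4 higher and 2 lower, against 21.5% and 27.8%. None of the 10 passed with a pseudocount of 0.1 (5.92% of all genes did), no filter on low values (2.07%), a minimum FPKM of 5 (7.13% of all genes; it left out CHAC1, ATF3 and SESN2), a replicate block (4.31%), eBayes without a trend (5.53%) or the thresholds of the study (0.0746%). In bulk RNA, a smaller share of cells that express a gene and less RNA per cell cannot be told apart.

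**Figure D2:**
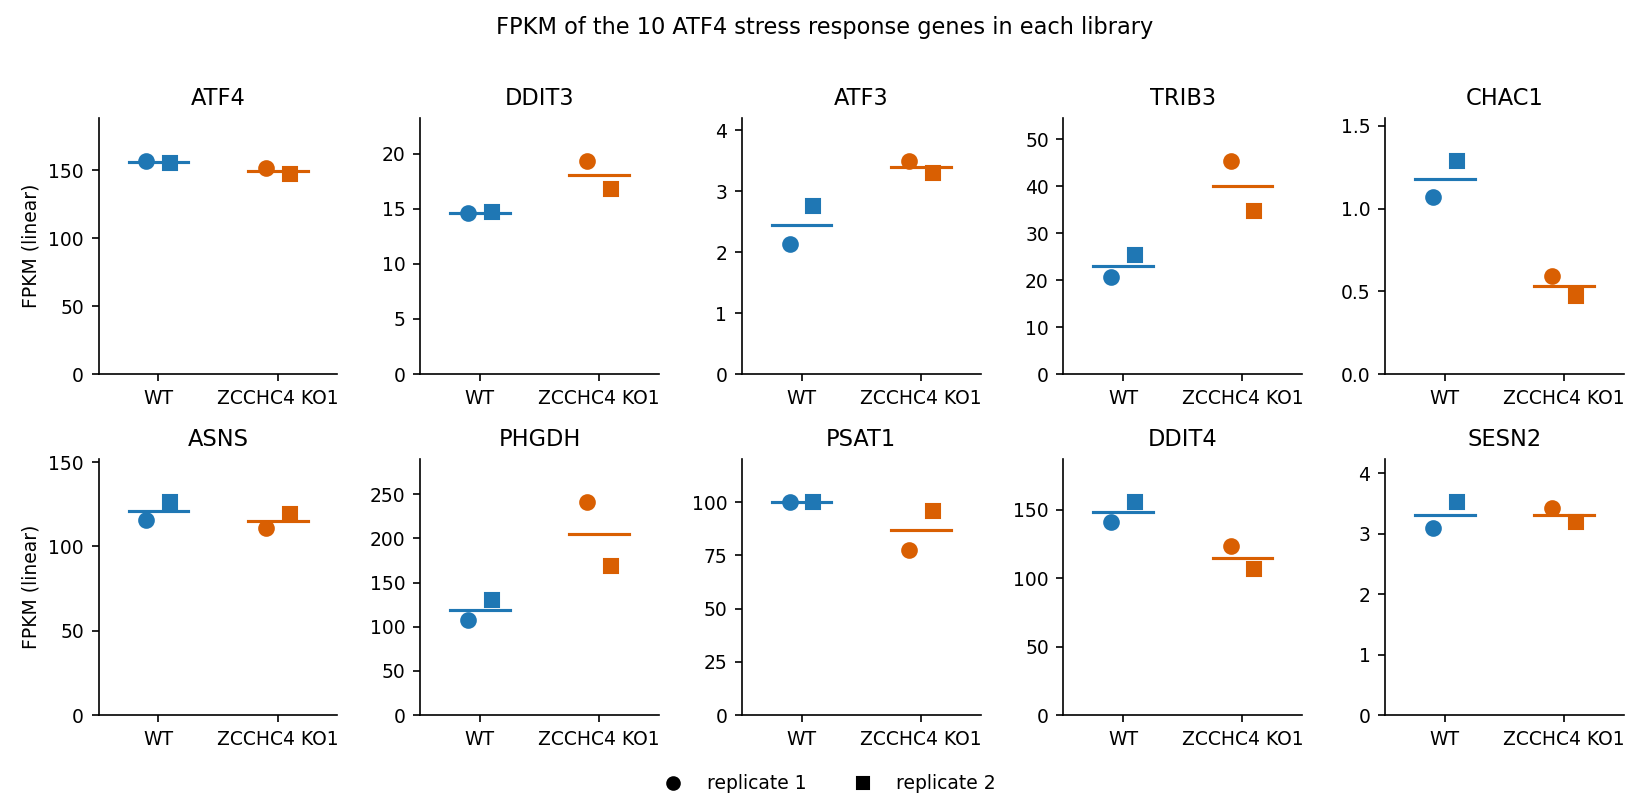
FPKM on a linear axis from 0 for each of the 10 genes, with WT libraries in blue and ZCCHC4 KO1 libraries in orange (circle, replicate 1; square, replicate 2; bar, mean of 2). TRIB3, PHGDH, DDIT3 and ATF3 have both ZCCHC4 KO1 libraries above WT, CHAC1, DDIT4, PSAT1 and ATF4 have both below, and ASNS and SESN2 overlap.

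The levels spanned about the whole range of tested genes. In WT cells the order of mean FPKM was ATF4 (156.4), DDIT4 (148.6), ASNS (121.2), PHGDH (118.7), PSAT1 (100.2), TRIB3 (23.1), DDIT3 (14.7), SESN2 (3.31), ATF3 (2.44) and CHAC1 (1.18). ATF4 and DDIT4 overlapped between libraries, as did ASNS and PHGDH, and the other neighbours in this order did not. In ZCCHC4 KO1 cells PHGDH was at the top with 205.2 FPKM, followed by ATF4 with 149.6, and ASNS and DDIT4 both had a mean of 115.1. PHGDH stood at the percentile 95.2 of tested genes by mean level over the 4 libraries and CHAC1 at 0.6.

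ATF4 mRNA was abundant and nearly level. It was at 157.33 and 155.51 FPKM in WT libraries, against 151.55 and 147.61 in ZCCHC4 KO1. Both ZCCHC4 KO1 libraries were the lower ones, by a ratio of means of 0.956. The log2 fold change was -0.06 (SE 0.121, 95% interval from -0.36 to 0.23, adjusted p = 0.807 from limma), an interval that holds no change of 2-fold.

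DDIT3 encodes CHOP, a transcription factor that acts with ATF4 and promotes cell death in lasting stress. WT libraries had 14.59 and 14.71 FPKM, and ZCCHC4 KO1 libraries 19.37 and 16.78. Both ZCCHC4 KO1 libraries were above WT, and they differed from each other by more than the nearer of them differed from the higher WT library. The log2 fold change was 0.28 (SE 0.162, adjusted p = 0.373 from limma). ATF3, a stress-induced transcription factor of the same bZIP class, was at 2.13 and 2.76 FPKM in WT libraries, against 3.5 and 3.29 in ZCCHC4 KO1. The groups did not overlap, with a log2 fold change of 0.36 (SE 0.199, adjusted p = 0.358 from limma).

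TRIB3 encodes a pseudokinase that is induced by ATF4 and CHOP and restrains them in turn. It was at 20.67 and 25.43 FPKM in the WT libraries. In ZCCHC4 KO1 it was at 45.51 and 34.76. The means were 23.1 ± 3.37 and 40.1 ± 7.6 FPKM (SD, n = 2 each), and the lower ZCCHC4 KO1 library was above the higher WT library. The log2 fold change was 0.77 (SE 0.193, 95% interval from 0.29 to 1.25, adjusted p = 0.0819 from limma). Its adjusted p from limma was 0.0348 after median-ratio scaling, 0.0323 after quantile normalization and 0.0084 once the trend on GC content was taken out.

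CHAC1, an enzyme that breaks down glutathione and a sensitive target of the ATF4 and CHOP branch, was at the low end of the tested genes. WT libraries had 1.07 and 1.29 FPKM, and ZCCHC4 KO1 libraries 0.59 and 0.47. The groups did not overlap. CHAC1 reached the minimum of 1 FPKM in the WT libraries alone, so it entered the test through the group in which it was higher. The log2 fold change was -0.51 (SE 0.17, adjusted p = 0.149 from limma), while a pseudocount of 0.1 gave -1.02 (adjusted p = 0.127 from limma). TRIB3 and CHAC1, which both hold the strict element near the start, lay on opposite sides of WT.

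Of the genes for amino acid synthesis, PHGDH catalyses the first step from glycolysis to serine and PSAT1 the second. PHGDH was at 107.45 and 130.03 FPKM in WT. In ZCCHC4 KO1 it was at 241.6 and 168.77. Both ZCCHC4 KO1 libraries were above WT, and the spread between them was wide (118.7 ± 16.0 against 205.2 ± 51.5 FPKM, SD, n = 2 each). The log2 fold change was 0.77 (SE 0.209, 95% interval from 0.25 to 1.28, adjusted p = 0.0974 from limma). Its adjusted p from limma was 0.011 after quantile normalization, 0.00673 once the GC trend was taken out and 0.0541 after median-ratio scaling. Without ZCCHC4 KO1 replicate 2 the log2 fold changes of TRIB3 and PHGDH were 0.959 and 1.025. Without ZCCHC4 KO1 replicate 1 they were 0.579 and 0.51. PSAT1 was at 100.27 and 100.12 FPKM in WT libraries, against 77.65 and 95.77 in ZCCHC4 KO1, so that the ZCCHC4 KO1 libraries were the lower ones, with a log2 fold change of -0.21 (SE 0.149, adjusted p = 0.463 from limma). PSPH, the third enzyme of the path, had a log2 fold change of -0.24 (adjusted p = 0.319 from limma) and was named after its values were seen.

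ASNS, which makes asparagine and is a standard marker of ATF4 activity, was at 115.72 and 126.59 FPKM in WT libraries, against 110.98 and 119.15 in ZCCHC4 KO1. The groups overlapped. The log2 fold change was -0.07 (SE 0.129, 95% interval from -0.39 to 0.24, adjusted p = 0.794 from limma), and with the GC trend removed its sign was the opposite, at 0.04.

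DDIT4 and SESN2 encode inhibitors of the growth kinase complex mTORC1, and both also respond to other signals, such as p53. DDIT4, also known as REDD1, was at 141.26 and 156.04 FPKM in WT libraries, against 123.28 and 106.95 in ZCCHC4 KO1. Both ZCCHC4 KO1 libraries were below WT, with a log2 fold change of -0.37 (SE 0.14, 95% interval from -0.71 to -0.02, adjusted p = 0.196 from limma). It passed with the GC trend removed (-0.46, adjusted p = 0.0147 from limma), where CHAC1 passed too (-0.63, adjusted p = 0.0416 from limma). SESN2 was at 3.1 and 3.53 FPKM in WT libraries, against 3.43 and 3.2 in ZCCHC4 KO1, and the groups overlapped. Its log2 fold change was 0.0 (SE 0.19, 95% interval from -0.47 to 0.47, adjusted p = 0.998 from limma).

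**Figure D3:**
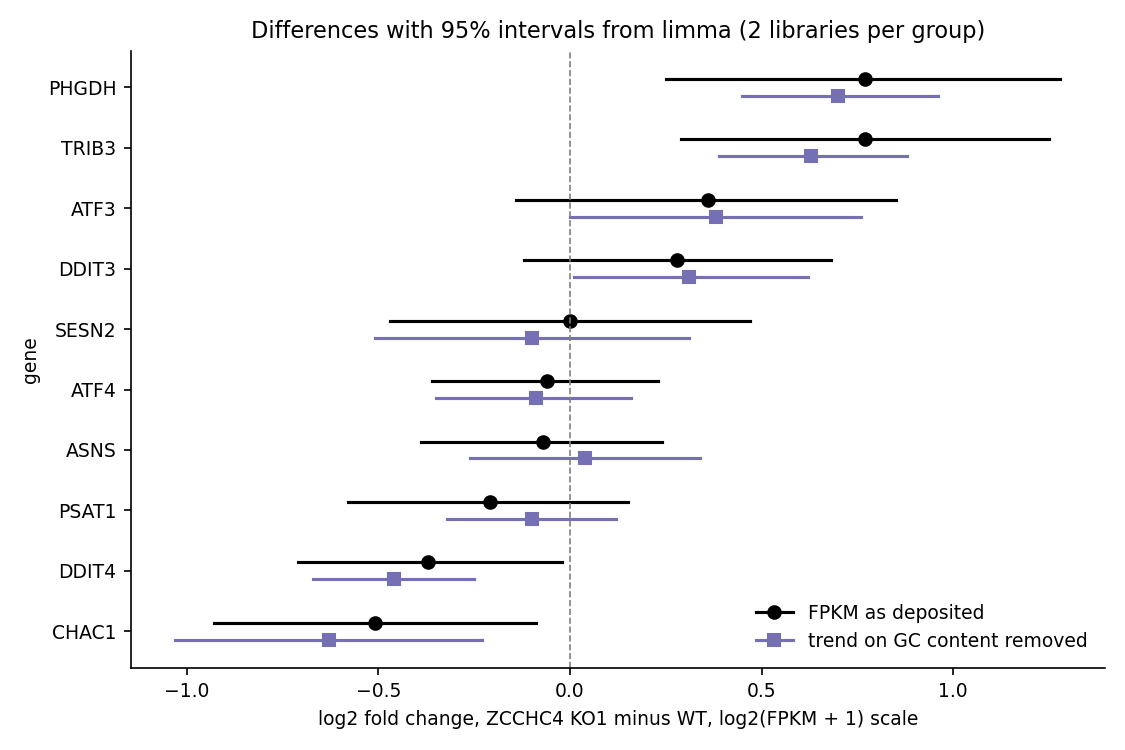
Log2 fold change of ZCCHC4 KO1 over WT for the 10 genes with 95% intervals from limma, on the log2(FPKM + 1) scale, for FPKM as deposited (black) and with the trend on transcript GC content removed from each library (purple). As deposited, TRIB3 and PHGDH are both at 0.77 and CHAC1 is at -0.51, and the purple intervals of TRIB3, PHGDH and DDIT4 are narrower than the black ones.

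The libraries within a group differed along the GC content of transcripts, and the 10 genes ran from 43.8% (ASNS) to 62.3% (TRIB3). Across 10559 genes, GC content correlated with the value of replicate 2 minus that of replicate 1 at a Spearman rho of 0.715 (WT) and -0.778 (ZCCHC4 KO1), a description across genes, which are not replicates. The part of this trend in the results was not tested. With this trend removed, the gap between the ZCCHC4 KO1 libraries on the log2 scale went from 0.38 to 0.02 for TRIB3 and from 0.51 to 0.25 for PHGDH, whereas for ATF4 it went from 0.04 to 0.16. Under that setting TRIB3 and PHGDH were called higher and CHAC1 and DDIT4 lower, 4 of 10, against 19.9% of all genes tested. CHAC1, which entered the test through WT alone, is 1 of these 4. For the 20 tested genes nearest to each of the 10, the median of the log2 fold change was between -0.17 (PHGDH) and 0.11 (TRIB3 and CHAC1).

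The relatives of the 10 genes gave a mixed picture, and none of 7 tested relatives passed an adjusted p of 0.05. CHAC2, the second glutathione-degrading enzyme of its kind, was at 20.3 and 15.3 FPKM in WT libraries, against 8.74 and 13.61 in ZCCHC4 KO1 (adjusted p = 0.216 from limma). It was thus more abundant than CHAC1 in every library and, like CHAC1, lower in both ZCCHC4 KO1 libraries. Of the sestrins, SESN1 was at 3.18 and 3.17 in WT libraries, against 2.03 and 3.05 in ZCCHC4 KO1, a level like that of SESN2, while SESN3 was at most 0.02. TRIB1 stayed between 4.19 and 5.85 FPKM and TRIB2 at or below 0.34, both far under TRIB3. The log2 fold changes of ATF5, CEBPB, CEBPG and JDP2, bZIP factors related to ATF4, ATF3 and their partners, were 0.15, 0.30, 0.07 and 0.26.

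Around the 10 genes, 6 lists of pathway genes held 96 genes, of which 88 were tested. Among them 3 were called higher and 4 lower, and the median log2 fold change was -0.02. The calls were at 3.41% and 4.55% of the 88, beside 1.5% and 4.48% of all genes. For unadjusted p under 0.05, given with each list, the shares of all genes were 8.96% higher and 13.9% lower.

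Upstream of ATF4, 19 genes for stress sensors and the eIF2 machinery were tested, with 1 called lower, or 5.26% beside 4.48% of all genes, and none higher (2 and 1 at an unadjusted p under 0.05 from limma). The called gene was EIF2S3, a subunit of eIF2 itself, at 187.14 and 161.85 FPKM in WT libraries, against 71.58 and 97.1 in ZCCHC4 KO1 (log2 fold change of -1.05, adjusted p = 0.0345 from limma). It did not pass with no filter on low values or with eBayes without a trend (adjusted p = 0.0897 and 0.0541 from limma). EIF2S3 lies on chromosome X, where the median over its 20 nearest tested genes was -0.91 on the log2 scale. The part of this region in the result was not tested. The sensor kinases, chosen after their values were seen, had log2 fold changes of -0.67 for EIF2AK1, 0.02 for EIF2AK2, -0.56 for EIF2AK3 and -0.45 for EIF2AK4, none past an adjusted p of 0.05. PPP1R15A encodes GADD34, a regulatory subunit of the phosphatase that removes the phosphate from eIF2, and is itself an ATF4 target. It was at 15.14 and 15.01 FPKM in WT libraries, against 30.92 and 24.1 in ZCCHC4 KO1 (log2 fold change of 0.82, adjusted p = 0.0579 from limma), and it was also named after its values were seen. PPP1R15A passed with median-ratio scaling, quantile normalization and the GC trend removed (adjusted p = 0.0208, 0.0215 and 0.0131 from limma).

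Among 15 partner transcription factors, 2 were called higher and none lower, against 1.5% and 4.48% of all genes (2 and 1 at an unadjusted p under 0.05 from limma). BATF3, a bZIP factor on the same arm of chromosome 1 as ATF3, was at 4.16 and 3.7 FPKM in WT libraries, against 15.97 and 11.96 in ZCCHC4 KO1 (log2 fold change of 1.59, adjusted p = 0.0177 from limma). FOSL1, a subunit of AP-1, was at 25.32 and 24.91 in WT libraries, against 45.56 and 39.87 in ZCCHC4 KO1 (log2 fold change of 0.74, adjusted p = 0.0443 from limma). The call on FOSL1 was lost with no filter, with eBayes without a trend, with the replicate block (adjusted p = 0.159 from limma), and without WT replicate 1, WT replicate 2 or ZCCHC4 KO1 replicate 1 (0.266, 0.272 and 0.077). BATF3 missed an adjusted p of 0.05 with no filter (0.0537), and passed it in the other fits. The 20 nearest tested genes of BATF3 had a median of -0.03.

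Tested next were 15 genes of amino acid and folate synthesis, 11 transporter genes and 13 genes for aminoacyl-tRNA synthetases and tRNA export. For FPKM as deposited, limma gave 0 calls in either direction, where 1.5% of all genes were called higher and 4.48% lower. At an unadjusted p under 0.05, there were 0 higher and 1 lower, 1 higher and 2 lower, and 1 higher and 2 lower genes. Their median log2 fold changes were 0.09, -0.11 and -0.11. Other settings did call some of them. With the GC trend removed, 1 higher and 1 lower, 1 higher and 2 lower, and 1 higher and 1 lower were called. Of all genes, 7.02% and 12.8% were. Quantile normalization called 0, 1 and 1 higher (4.34% of all genes) and median-ratio scaling 0, 0 and 1 (3.23%), and neither called any lower. The looser element was present in the start windows of 7 of 11 synthetase genes with a window (63.6%), of 5 of 10 transporter genes and of 3 of 9 synthesis genes, but of 1 of 15 other targets (6.67%), 1 of 16 sensor and eIF2 genes (6.25%) and 2 of 11 partner factors, beside 2.49% of tested genes.

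Of 15 other tested targets of ATF4 and CHOP, 1 was called higher and 3 lower, against 1.5% and 4.48% of all genes (1 and 5 at an unadjusted p under 0.05 from limma). Without WT replicate 1 or without WT replicate 2 none of the 15 was called, without ZCCHC4 KO1 replicate 1 the call on GDF15 was lost (adjusted p = 0.061 from limma), and the replicate block lost the 3 lower calls. GDF15, a secreted stress hormone, was at 7.41 and 7.69 FPKM in WT libraries, against 22.37 and 15.07 in ZCCHC4 KO1 (log2 fold change of 1.18, adjusted p = 0.0444 from limma). TNFRSF10B, the death receptor DR5 and a known CHOP target, was at 25.61 and 25.98 in WT libraries, against 13.01 and 13.23 in ZCCHC4 KO1 (log2 fold change of -0.92, adjusted p = 0.0264 from limma). It lies on chromosome 8, where its 20 nearest tested genes had a median of -0.32. GRB10, an adaptor that dampens insulin signalling, fell from 4.21 ± 0.0778 to 1.48 ± 0.106 FPKM (SD, n = 2 each, adjusted p = 0.0319 from limma). VEGFA, the vascular growth factor, was at 32.03 and 27.14 in WT libraries, against 14.95 and 15.57 in ZCCHC4 KO1 (adjusted p = 0.0338 from limma). With no filter on low values, GDF15, GRB10 and VEGFA did not pass (adjusted p = 0.0966, 0.0825 and 0.0652 from limma), while TNFRSF10B did (0.0479).

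The tested genes of the other ER stress branches lay on 1 side. These are controlled by XBP1 and ATF6 and encode chaperones, folding enzymes and factors that clear misfolded proteins. ERN1 and DERL3 of this list did not reach the minimum FPKM and were not tested. ERN1 was at 0.63 and 0.53 FPKM in WT libraries, against 0.78 and 1.01 in ZCCHC4 KO1, so both ZCCHC4 KO1 libraries were above WT. DERL3 was at 0.1 and 0.02 in WT libraries and at 0 in ZCCHC4 KO1. Of 22 tested, all had a log2 fold change below 0, as did 53.2% of all genes (21 with median-ratio scaling, SEL1L excepted, and 20 with quantile normalization or the GC trend removed, ATF6 and SEL1L excepted), 19 had both ZCCHC4 KO1 libraries below both WT libraries (28.5% of all genes did), and the median was -0.56, against -0.03 for the 10 ATF4 stress response genes and for all genes. Of the 22, 4 were called lower (4.48% of all genes were) and 0 higher, and 12 and 0 had an unadjusted p under 0.05 from limma, where 13.9% of all genes were lower. XBP1, the transcription factor of this branch, was at 71.92 and 76.59 FPKM in WT libraries, against 41.95 and 39.72 in ZCCHC4 KO1 (log2 fold change of -0.85, adjusted p = 0.024 from limma). HSPA5, the chaperone BiP, was at 179.39 and 164.13 in WT libraries, against 84.69 and 103.36 in ZCCHC4 KO1 (adjusted p = 0.033 from limma). PDIA4 and HERPUD1 were the other called genes, with log2 fold changes of -0.80 and -0.86. HSPA5 did not pass with no filter on low values or with eBayes without a trend (adjusted p = 0.0752 and 0.0577 from limma). With the replicate block PDIA4 and HERPUD1 did not pass (adjusted p = 0.0849 and 0.093 from limma). Without WT replicate 1 none of the 22 was called, and without WT replicate 2 only HSP90B1 was.

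The ER stress response element, CCAAT followed after 9 bases by CCACG on either strand, was found in the start windows of 7 of 21 of these genes and of 0 of the 10 ATF4 stress response genes, against 0.17% of tested genes. The matches in HSPA5 (chr9:125241391-125241409, 66 bases before the start) and XBP1 (chr22:28800603-28800621, 52 bases before the start), both on the minus strand of the genome and upstream of the gene, are shown with the element in capitals and 5 flanking bases.
HSPA5: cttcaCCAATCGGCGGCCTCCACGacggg
XBP1: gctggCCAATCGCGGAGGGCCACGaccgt

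**Figure D4:**
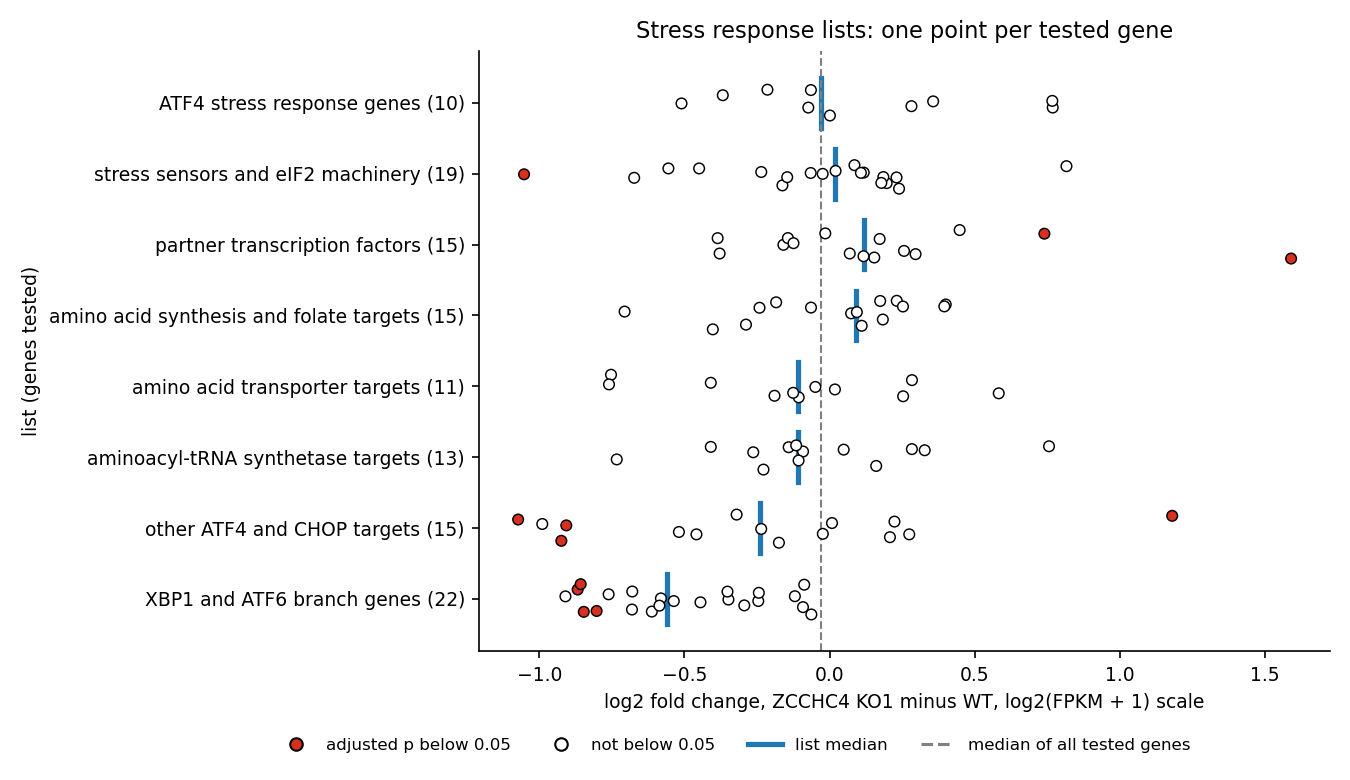
Log2 fold change of ZCCHC4 KO1 over WT on the log2(FPKM + 1) scale for each tested gene of the 10 ATF4 stress response genes, the 6 pathway lists and the XBP1 and ATF6 branch. Filled points passed an adjusted p of 0.05 from limma, blue bars are list medians, and the dashed line is the median of all tested genes at -0.03. The ATF4 stress response genes spread to both sides of the line, and the 22 tested genes of the XBP1 and ATF6 branch lie below 0.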

How the data were processed

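Expression values were made by the authors with RSEM, from reads mapped by Bowtie2 to GRCh38, and each library's column was deposited as FPKM. Versions, annotation and read filters are not given in the sources used here. The labels name an Illumina HiSeq and the methods a BGISEQ-500 instrument. No count model was run on FPKM.

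Genes with an FPKM of at least 1 in at least 2 libraries (10726 of 16658) were fitted on the log2(FPKM + 1) scale by limma 3.58.1 (R 4.3.3; lmFit, then eBayes with a trend), with Benjamini-Hochberg adjustment over all genes tested. This scale understates changes of low values. Genes were called at an adjusted p below 0.05. The study's thresholds, an FDR below 0.001 and a 2-fold change, were an alternative, and none of the 10 genes passed them (2 higher and 6 lower genes in all). FPKM sums were between 512417.0 and 565198.6. The test was also run on simulated data, with values drawn independently for each gene and library. These data lack the trend on GC content, so the run cannot show how the test performs on these libraries.

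Symbols, positions and start sites came from RefSeq (GRCh38.p14), and all 10 genes had a start in its table of gene starts. GC content was the median over GENCODE v44 transcripts and covered 98.4% of tested genes. GENCODE v44 gave exons and introns. Motifs were matched by exact letters. One further marker is not reported here. The genes and lists were chosen with earlier results of these data known. Named were ZCCHC4, the 10 genes, their relatives, and of each list at most 5 called genes with the largest change. PSPH, PPP1R15A, the EIF2AK kinases, SEL1L, ATF6, HSP90B1 and the genes under the minimum FPKM fall outside this rule and were chosen after their values were seen.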

Additional observations from a re-analysis of the deposited data

How the results depend on the processing

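None of the 10 ATF4 stress response genes was called as deposited, with a pseudocount of 0.1, no filter, a minimum FPKM of 5, eBayes without a trend, the replicate block or the study's thresholds. Median-ratio scaling called 1 higher, quantile normalization called 2 higher, and removal of the GC trend called 2 higher and 2 lower. Leaving out each library in turn gave from 0 to 2 higher calls, the 2 (TRIB3 and PHGDH) without ZCCHC4 KO1 replicate 2, and 0 lower. The library left alone in its group was taken to vary like the other group. The share of all genes called was not computed for fits with a library left out. Counts from those fits, here and below, therefore cannot be read as results about the listed genes. Of the pathway genes, 3 were called higher and 4 lower. The counts were 1 and 1 with no filter (0.492% and 1.57% of all genes) and 0 and 0 with the study's thresholds (0.0186% and 0.0559%). With the GC trend removed they were 7 and 13 (7.02% and 12.8% of all genes). Median-ratio scaling gave 5 higher (3.23%), quantile normalization gave 6 higher (4.34%) and the replicate block gave 1 lower (3.31%). Leaving out libraries gave from 1 to 7 higher and from 1 to 9 lower, with 7 and 9 without ZCCHC4 KO1 replicate 2, 1 and 6 without ZCCHC4 KO1 replicate 1, 1 and 2 without WT replicate 2 and 1 and 1 without WT replicate 1. For the XBP1 and ATF6 branch, 8 were lower with quantile normalization (6.72% of all genes), 11 with the GC trend removed (12.8%) and 0 with the study's thresholds or without WT replicate 1. Signs near 0 reversed for ATF4 (0.013) and ASNS (0.004) with median-ratio scaling, for ASNS (0.041) and SESN2 (-0.104) with the GC trend removed, and for SESN2 over left-out libraries (from -0.071 to 0.073). For all of these, the cause was not tested.

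The labels give replicate numbers but state no pairing of the libraries, and whether they were prepared in pairs is unknown. Replicate 2 minus replicate 1 in WT correlated across genes with the same difference in ZCCHC4 KO1 at a Pearson r of -0.787, and with the replicate block 462 genes were called in all, against 641. The crossed pairing was added once the data had been seen. With it, 4 of the 10 genes were called higher and 2 lower, as were 17 and 25 of the 88 tested pathway genes. In the XBP1 and ATF6 branch 17 were called lower. Of all genes tested, 21.5% were called higher and 27.8% lower, 5295 calls in all. FPKM values carry no read totals, so counting error at low values such as those of CHAC1 is unknown.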

Other observations

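Some targets of ATF4 were under the minimum of 1 FPKM in 3 or 4 libraries and did not enter the test. FGF21, a hormone induced by ATF4 in amino acid shortage, was at 0.12 and 0 FPKM in WT libraries, against 0.85 and 0.67 in ZCCHC4 KO1. ALDH1L2, a mitochondrial folate enzyme, was at 0.07 and 0.05 in WT and at 0.13 in both ZCCHC4 KO1 libraries. INHBE was at 0.62 and 0.66 in WT libraries, against 0.73 and 0.71 in ZCCHC4 KO1. In these 3 genes both ZCCHC4 KO1 libraries were above WT. ADM2 and KLHL24, a further target, went the other way, with both ZCCHC4 KO1 values below WT. For ADM2 the WT values were 0.54 and 0.51, against 0.5 and 0.5 in ZCCHC4 KO1. KLHL24 had 1.0 and 0.47 in WT, against 0.23 and 0.44 in ZCCHC4 KO1. Among the tested genes, to which these do not belong, 23.1% lay above WT in this way and 28.5% below. With no filter on low values, limma gave adjusted p = 0.0485 for FGF21, 0.185 for ALDH1L2, 0.38 for KLHL24, 0.713 for INHBE and 0.887 for both ADM2 and RAB39B, the last at or below 0.01 FPKM. All of them were named after their values were seen.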
